A study of Mus musculus with 4 samples.

Results

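Immediate early genes were followed in RNA-seq libraries of mouse intestine that had been handled in different ways before RNA extraction. The genes were Fos, Fosb, Jun, Junb, Jund, Egr1, Atf3, Ier2, Nr4a1 and Dusp1. They were picked by name, and all 10 were found among the 55203 genes of the tables, with 31 of the 141738 transcripts. Tissue came from adult male wild-type C57BL/6NTac mice of 8 to 12 weeks, kept under specific-pathogen-free (SPF) conditions. There were 2 libraries labelled RVC, for a rinse with 4 mM ribonucleoside vanadyl complex, an inhibitor of ribonucleases, and 2 labelled fresh frozen. The same protocol text accompanied both groups, and only the labels set the fresh-frozen tissue apart. RNA was depleted of ribosomal RNA and sequenced as read pairs, and the series text gives the aim as a reference measurement for imaging of the gut, not a comparison of handling. The labels do not say whether the libraries came from separate animals or from pools, so p-values measure only the spread between these libraries. Each library has its own batch number (1 to 4), so batch and handling cannot be told apart.

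Immediate early genes are switched on within minutes of a signal by factors already present in the cell, and their RNAs are short-lived. MAP kinases act through serum response factor at CArG boxes, and cyclic AMP and calcium act through CREB at cyclic AMP response elements. FOS and JUN proteins pair to form the transcription factor AP-1, and ATF3 can pair with them. EGR1 is a zinc finger factor, NR4A1 an orphan nuclear receptor, IER2 a small nuclear protein, and DUSP1 a phosphatase that switches MAP kinases off again. Because excision and dissociation of tissue can induce these genes, their RNA is often looked at when tissue handling is compared.

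The sequences that link these genes to their inducing signals are short motifs upstream of the start site. For 9 genes, the 500 bases before the start of the most abundant transcript were read from GRCm39, the build of the files, and both strands were searched. The promoter of Egr1 was not analysed here. The stretches below carry the match in capitals with 20 bases on either side, written 5′ to 3′ on the strand of the gene, and are shown because they hold a CArG box, a cyclic AMP response element or a variant of it, or, in Nr4a1, a motif noticed beside the CArG boxes.
Fos, CArG box, chr12:85520335-85520384, + strand: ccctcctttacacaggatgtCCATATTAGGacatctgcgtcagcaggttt
Fosb, CArG box, chr7:19044213-19044262, - strand: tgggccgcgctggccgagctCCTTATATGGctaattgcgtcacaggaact
Jund, TGACGTCA, chr8:71151365-71151412, + strand: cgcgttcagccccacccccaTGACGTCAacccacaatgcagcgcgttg
Ier2, TGACGTCA, chr8:85389499-85389546, - strand: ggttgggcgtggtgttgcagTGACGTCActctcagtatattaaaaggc
Dusp1, TGACGTCA, chr17:26727562-26727609, - strand: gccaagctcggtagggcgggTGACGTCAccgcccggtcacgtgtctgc
Jun, TGACATCA, chr4:94940477-94940524, - strand: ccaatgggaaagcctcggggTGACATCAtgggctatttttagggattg
Nr4a1, TGCGTCA (2 matches), chr15:101164472-101164538, + strand: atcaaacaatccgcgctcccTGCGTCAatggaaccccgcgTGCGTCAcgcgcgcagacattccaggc

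The CArG box, bound by serum response factor, lay 309 to 300 bases before the start of Fos and 266 to 257 bases before that of Fosb. It was found in 2 of the 9 windows and in 2.54% of the 11199 windows of protein-coding genes compared, which left out chromosome 18. The Fos and Fosb stretches share the 7 bases tgcgtca, 5 bases after the box in both. That motif, TGCGTCA, was searched only after it had been noticed. It was in 3 of the 9 windows (Fos, Fosb and Nr4a1, with 4 matches in Nr4a1) and in 4.03% of all windows. The full cyclic AMP response element TGACGTCA was in 3 of 9 windows and 3.17% of all. In Ier2 it lay 43 to 36 bases, in Dusp1 96 to 89 bases and in Jund 214 to 207 bases before the start. The variant TGACATCA of Jun, 45 to 38 bases before the start, was in 1 of 9 windows and 2.05% of all. The general AP-1 motif TGANTCA was in 1 window (Fos), against 9.56%, and the EGR motif GCGNGGGCG in 4 windows (Fosb, Jun, Jund and Nr4a1), against 10.6%. A match describes these letters only. In GENCODE M39, 0 of the 7 stretches overlapped an exon of a protein-coding gene, and those of Jund, Dusp1, Jun and Nr4a1 overlapped exons of noncoding genes.

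Levels are given as FPKM, fragments scaled to transcript length and library size and summed over the transcripts of a gene, which allows genes of different length to be compared. In order of the mean over 4 libraries the genes ran Jund, Fos, Junb, Jun, Ier2, Dusp1, Atf3, Egr1, Fosb and Nr4a1. They spanned a wide range. Jund stood above 96.2% of the genes with a mean of at least 1 FPKM and Fos above 92.7%, whereas Egr1 stood above 24.2% and Fosb above 3.16%. Nr4a1, at a mean of 0.786 FPKM, lay below 1 FPKM. Jund ranked 1 and Jun ranked 4 in every library. The ranges over libraries did not overlap between Jund and Fos, Junb and Jun, Atf3 and Egr1, or Egr1 and Fosb. Neighbours whose ranges overlapped were Fos and Junb, Jun and Ier2, Ier2 and Dusp1, Dusp1 and Atf3, and Fosb and Nr4a1. Jun was nevertheless above Ier2, and Dusp1 above Atf3, in 4 of 4 libraries.

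**Figure D1:**
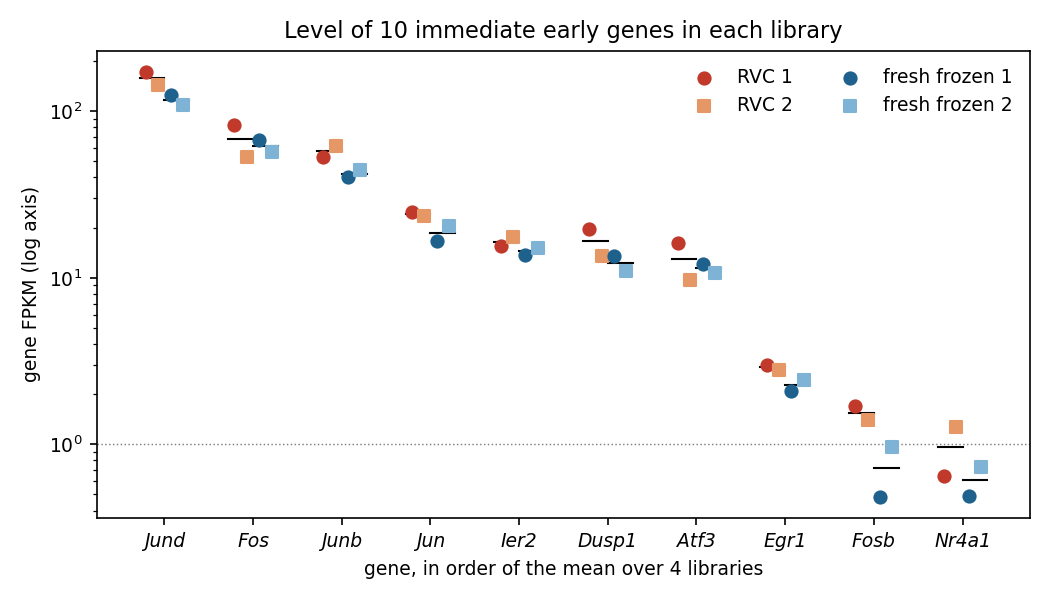
Gene FPKM (log axis) of the 10 immediate early genes in each library, with circles for sample 1, squares for sample 2, red tones for RVC and blue tones for fresh frozen. Horizontal lines are group means of 2 libraries and the dotted line marks 1 FPKM. The Jund values, 109 to 172 FPKM, lie above those of all other genes, and Fosb and Nr4a1 lie around 1 FPKM.

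RVC and fresh frozen were set against each other with the moderated two-sided test of limma on log2(scaled FPKM + 1), for the 13775 genes that averaged 1 FPKM or more. Low genes change by more than this scale shows. Among the 10 genes, 9 were tested and Nr4a1 fell below the minimum. Of these 9, 0 had an adjusted p under 0.05, against 5 of all genes tested (0.0363%). At an unadjusted p under 0.05 there were 4 of 9, Junb, Jund, Fosb and Jun, all higher in RVC, while 0 were lower. At that level 9.38% of all genes were higher and 8.99% lower (18.4% in all). The groups did not overlap, with RVC higher, for 7 of 9 genes, against 26.5% of all genes, and for 0 with RVC lower, against 26.6%. All 9 had a log2 fold change above 0, against 51% of all genes tested. Their median was 0.38, beside 0.0062 over all genes tested. It was 0.22 without fresh frozen 1 and 0.24 without RVC 1. Leaving out RVC 1 also put Fosb below the minimum and left 6 of 8 genes with a fold change above 0. Leaving out any other library left 9 of 9 above 0. In whole tissue, a difference in the number of cells that express a gene and a difference in RNA per cell cannot be told apart.

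Fos differed more between the RVC libraries than between the groups. Fos (ENSMUSG00000021250, chromosome 12, 85520664 to 85524047), the prototype of the family, measured 82.4 (RVC 1) and 53.0 FPKM (RVC 2) against 66.7 (fresh frozen 1) and 57.1 FPKM (fresh frozen 2). The RVC libraries held both the highest and the lowest value, so the groups overlapped. The mean ± SD was 67.7 ± 20.8 FPKM for RVC and 61.9 ± 6.78 for fresh frozen (n = 2 each). The log2 fold change was 0.10 (95% interval -0.37 to 0.58, limma adjusted p 0.804). RVC 1 exceeded RVC 2 by 0.63 on the log2 scale, more than the difference between the groups, and without RVC 1 the fold change was -0.21. From the most abundant transcript alone it was 0.049. For the main Fos transcript the confidence bounds in the files were 67.9 to 75.5 FPKM in RVC 1 and 42.8 to 48.1 in RVC 2, so these libraries were apart by more than the estimation error of each.

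Fosb (ENSMUSG00000003545, chromosome 7, 19036621 to 19043976), a paralog of Fos best known from neurons, measured 1.69 (RVC 1) and 1.40 FPKM (RVC 2) against 0.486 (fresh frozen 1) and 0.966 FPKM (fresh frozen 2). Both RVC values lay above both fresh-frozen values. The log2 fold change was 0.57 (SE 0.19, 95% interval 0.12 to 1.02), the highest of the 9, with an unadjusted p of 0.0197 and a limma adjusted p of 0.202. With a pseudocount of 0.1 it was 1.06, since the values lie near 1 FPKM. Without fresh frozen 1 it was 0.36, below Dusp1 and Jund in the same fit. Fos exceeded Fosb 37.9-fold to 137-fold within a library.

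All genes of the Jun family were higher in both RVC libraries than in both fresh-frozen libraries, without passing the adjusted threshold. Jund (ENSMUSG00000071076, chromosome 8, 71151599 to 71153265), the member that many cells make without a stimulus, measured 172 (RVC 1) and 143 FPKM (RVC 2) against 125 (fresh frozen 1) and 109 FPKM (fresh frozen 2). RVC averaged 158 ± 20.1 and fresh frozen 117 ± 11.3 (SD, n = 2). On the log2 scale RVC was higher by 0.43 (SE 0.13, limma adjusted p 0.178).

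Junb (ENSMUSG00000052837, chromosome 8, 85701113 to 85705347) encodes a JUN protein that often opposes JUN in cell division. It measured 53.3 (RVC 1) and 61.4 FPKM (RVC 2) against 40.1 (fresh frozen 1) and 44.1 FPKM (fresh frozen 2). Unlike Jund, it was higher in the second library of each group. RVC averaged 57.3 ± 5.77 and fresh frozen 42.1 ± 2.85 (SD, n = 2), which gave a log2 fold change of 0.44 (SE 0.12). Its limma adjusted p of 0.157 was the lowest of the 9 genes, at an unadjusted p of 0.0078.

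Jun (ENSMUSG00000052684, chromosome 4, 94937271 to 94940459), the partner of FOS in classical AP-1, measured 24.8 (RVC 1) and 23.6 FPKM (RVC 2) against 16.6 (fresh frozen 1) and 20.5 FPKM (fresh frozen 2). The RVC libraries lay close together and fresh frozen 1 was lowest. The log2 fold change was 0.38 (SE 0.14, limma adjusted p 0.217), and 0.22 without fresh frozen 1. The long noncoding RNA gene Junos covers all 3189 bases of the Jun transcript on the opposite strand and was listed at 1.64 to 2.94 FPKM. Use of strand is not given in the sources used here, so reads of the pair cannot be told apart with certainty.

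Within the Jun family, the shares overlapped between the groups. Jund carried 68.8%, 62.8%, 68.8% and 62.7% of the summed Jun family FPKM in RVC 1, RVC 2, fresh frozen 1 and fresh frozen 2. Jun carried 9.14% to 11.9%. The family sums were 250.0 and 229 FPKM with RVC against 181 and 173 with fresh frozen. Those of Fos and Fosb together were 84.1 and 54.4 against 67.2 and 58.0. The Jun family sums thus separated the groups and the sums of Fos and Fosb did not, though the difference between these sums was not tested. Fosb alone separated the groups, and the FOS-related gene Fosl2 was not part of the sum.

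**Figure D2:**
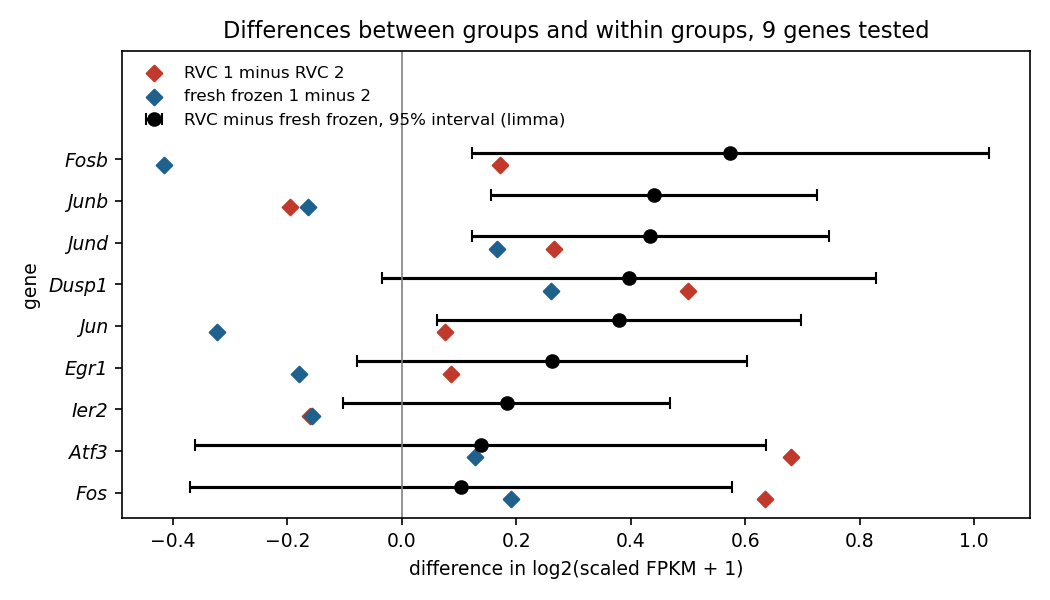
Differences in log2(scaled FPKM + 1) for the 9 genes tested. Black points are the RVC minus fresh-frozen differences with 95% intervals from limma, and diamonds are differences between the 2 libraries of a group. For Fos and Atf3 the RVC 1 minus RVC 2 difference, 0.63 and 0.68, is larger than that between the groups.

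Atf3 (ENSMUSG00000026628, chromosome 1, 190902493 to 190950236), a stress-induced bZIP factor, followed Fos. It measured 16.2 (RVC 1) and 9.76 FPKM (RVC 2) against 12.1 (fresh frozen 1) and 10.7 FPKM (fresh frozen 2). As for Fos, the RVC libraries held the extremes and the groups overlapped. The log2 fold change was 0.14 (95% interval -0.36 to 0.64, limma adjusted p 0.746), and without RVC 1 it was -0.20.

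Egr1 (ENSMUSG00000038418, chromosome 18, 34992876 to 34998037), often the companion of Fos in responses to growth factors, was low. It measured 3.00 (RVC 1) and 2.79 FPKM (RVC 2) against 2.08 (fresh frozen 1) and 2.44 FPKM (fresh frozen 2). The groups did not overlap, but the log2 fold change of 0.26 (95% interval -0.079 to 0.60) had a limma adjusted p of 0.361. Without fresh frozen 1 it was 0.17. Fos exceeded Egr1 27.5-fold and 19.04-fold in the RVC libraries and 32.1-fold and 23.4-fold in the fresh-frozen libraries.

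Nr4a1 (ENSMUSG00000023034, chromosome 15, 101152150 to 101172676), an immediate early nuclear receptor of lymphocytes and many tissues, was the lowest gene. It was listed at 0.645 (RVC 1) and 1.27 FPKM (RVC 2) against 0.490 (fresh frozen 1) and 0.735 FPKM (fresh frozen 2). The groups overlapped, since RVC 1 lay below fresh frozen 2. Tested without a minimum level, its log2 fold change was 0.27 (SE 0.21, limma adjusted p 0.664).

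Ier2 (ENSMUSG00000053560, chromosome 8, 85387960 to 85389483) had the lowest coefficient of variation of the 10 genes, 10.03% over the 4 libraries against 46.3% for Fosb. It measured 15.5 (RVC 1) and 17.5 FPKM (RVC 2) against 13.7 (fresh frozen 1) and 15.1 FPKM (fresh frozen 2). RVC 1 lay only just above fresh frozen 2, by 0.024 on the log2 scale. The log2 fold change was 0.18 (95% interval -0.10 to 0.47, limma adjusted p 0.434), and 0.10 without RVC 2 or without fresh frozen 1.

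Dusp1 (ENSMUSG00000024190, chromosome 17), the feedback inhibitor of the group, measured 19.5 (RVC 1) and 13.59 FPKM (RVC 2) against 13.57 (fresh frozen 1) and 10.9 FPKM (fresh frozen 2). RVC 1 stood apart, and RVC 2 and fresh frozen 1 were nearly equal. The log2 fold change was 0.40 (95% interval -0.034 to 0.83, limma adjusted p 0.296), less than the 0.50 between RVC 1 and RVC 2. It was 0.15 without RVC 1, 0.65 without RVC 2, 0.26 without fresh frozen 2 and 0.74 from the most abundant transcript alone.

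Across the 10 genes, RVC 1 was highest for 7 and RVC 2 for 3 (Junb, Ier2 and Nr4a1). Fresh frozen 1 was lowest for 6, fresh frozen 2 for 2 (Jund and Dusp1) and RVC 2 for 2 (Fos and Atf3). For 4 genes (Fos, Atf3, Nr4a1 and Dusp1) the larger difference within a group exceeded that between the groups. The matching shares of all genes were not computed for these counts. Over the 9 tested genes, RVC 1 exceeded each fresh-frozen library in 9 of 9, against 50.6% (fresh frozen 1) and 50.2% (fresh frozen 2) of all genes tested. The median differences were 0.43 against fresh frozen 1 and 0.45 against fresh frozen 2. RVC 2 exceeded each fresh-frozen library in 7 of 9 (50.1% and 50.3% of all genes tested), by a median of 0.31 and 0.19. Between the RVC libraries the median difference was 0.17, and between the fresh-frozen libraries -0.16 (1 less 2). For all genes tested, the medians of these 6 pairs lay between -0.0095 and 0.0057.

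**Figure D3:**
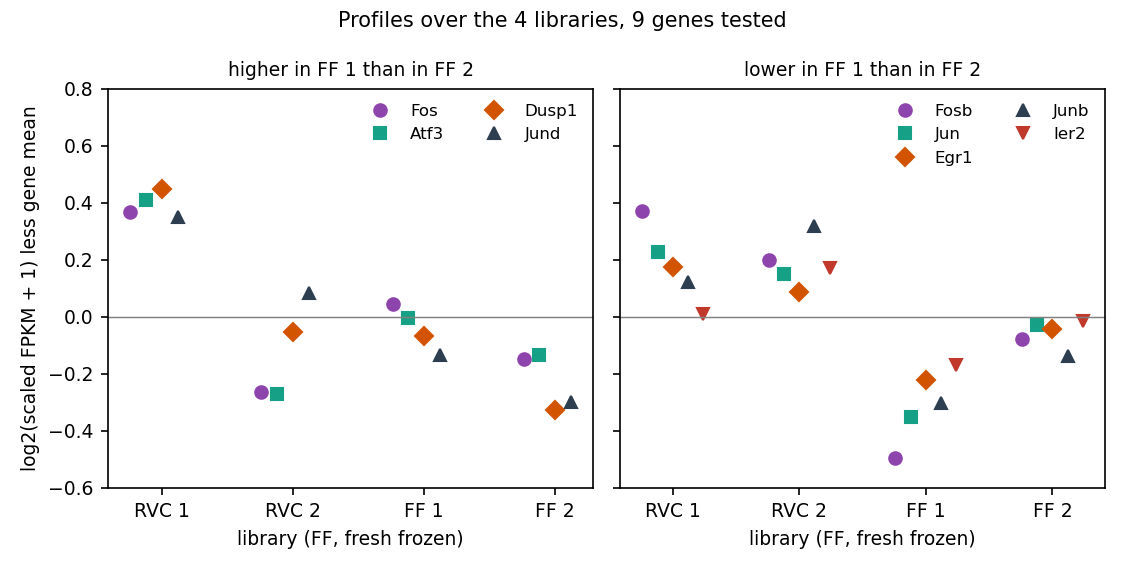
log2(scaled FPKM + 1) of each tested gene less its mean over the 4 libraries. Genes are divided by whether fresh frozen 1 lay above (left) or below (right) fresh frozen 2, a division made after the values were seen. Fos and Atf3 coincide, at 0.37 and 0.41 in RVC 1 and at -0.27 in RVC 2, and Fosb reaches -0.49 in fresh frozen 1.

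Likeness to Fos was measured as the root mean square difference between profiles centred on each gene's own mean over the 4 libraries. Atf3 differed from Fos by 0.032 on the log2 scale and ranked 3rd of 13774 genes. The other nearest genes that are not predicted were Cobll1 (0.029), Nprl2 (0.041), Eme2 (0.048) and Cfap157 (0.051), beside a median of 0.28 over all genes. Dusp1 ranked 514th (0.16) and Jund 2248th (0.21). Egr1, Jun, Ier2, Fosb and Junb ranked 4492nd, 8275th, 8730th, 11102nd and 11199th, so the profiles of Jun, Ier2, Fosb and Junb were farther from Fos than those of most genes. Hemoglobin and other erythrocyte genes also had high values in RVC 1 and fresh frozen 1, where the 5 of that list summed to 363 FPKM each. They summed to 105 in RVC 2 and 66.4 in fresh frozen 2, and their part in the Fos profile was not tested.

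The share of a gene's FPKM in each transcript varied between libraries more for some genes than for others. For Fos, the coding transcript ENSMUST00000021674 (2108 nt) carried 87.0%, 85.7%, 93.0% and 88.8% of the gene in RVC 1, RVC 2, fresh frozen 1 and fresh frozen 2. The rest lay in 3 shorter transcripts without a defined coding sequence. The most abundant of these, ENSMUST00000136122 (795 nt), was listed at 6.91 and 6.49 FPKM in RVC and at 3.39 and 4.81 in fresh frozen. Its groups did not overlap although those of the gene did, with a log2 fold change of 0.61 (SE 0.19) and a limma adjusted p of 0.272. Jun, Jund and Ier2 have 1 transcript each, and the main transcript of Junb carried 97.1% to 98.5%.

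Dusp1 was spread over more transcripts. ENSMUST00000025025 (1990 nt) carried 50.3%, 49.4% and 49.1% in RVC 1, RVC 2 and fresh frozen 2 but 28.3% in fresh frozen 1, where the coding transcript ENSMUST00000236661 (1587 nt) carried 49.6%. Both are coding, and Cufflinks divides the reads of overlapping transcripts by likelihood. The transcripts that retain an intron, ENSMUST00000126178 and ENSMUST00000146077, together carried 29.7% and 23.5% in RVC and 21.6% and 22.6% in fresh frozen. For Nr4a1, ENSMUST00000228985 (2553 nt), which starts upstream of the main transcript ENSMUST00000023779 (2477 nt), carried 99.98% in fresh frozen 1 and 25.5% in RVC 2. It carried 0.0218% in RVC 1 and 0.00178% in fresh frozen 2. ENSMUST00000231153, which retains an intron, carried 8.90% in RVC 2 and 11.7% in fresh frozen 2 and was listed at 0 elsewhere. The level of the whole gene was at most 1.27 FPKM.

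For Egr1, ENSMUST00000165033 (3036 nt) carried 80.5% to 85.4%, and ENSMUST00000064795 (4484 nt) the rest. ENSMUST00000165033 is not in GENCODE M39. The main transcript of Atf3, ENSMUST00000027941 (1984 nt), carried 90.3% to 99.996%. Fosb was divided among 7 transcripts, of which ENSMUST00000003640 (3782 nt) carried 30.6% to 60.6%. ENSMUST00000208446 (1090 nt) carried 20.5% and 35.9% in RVC 1 and RVC 2 (0.347 and 0.502 FPKM) and was listed near 0 in both fresh-frozen libraries. Its mean of 0.212 FPKM fell below the minimum, so it was not tested. Shares of other Fosb transcripts also moved within a group. ENSMUST00000208326 carried 21.3% in RVC 2 and 31.7% in fresh frozen 1, but 0.000470% in RVC 1 and 0.639% in fresh frozen 2. ENSMUST00000208505 carried 17.03% in fresh frozen 2, and the intron-retaining ENSMUST00000208230 7.74% to 23.8%. Over the 14 transcripts of these genes that were tested, 0 had a limma adjusted p under 0.05, where 1 of 24188 transcripts (0.00413%) passed. At an unadjusted p under 0.05, 4 were higher and 0 lower in RVC, against 8.01% and 7.61% of all transcripts. The groups did not overlap for 9, all higher in RVC (25.4% of all transcripts were higher and 24.9% lower in this way). A fold change above 0 was seen for 13 of 14 (50.9% of all).

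**Figure D4:**
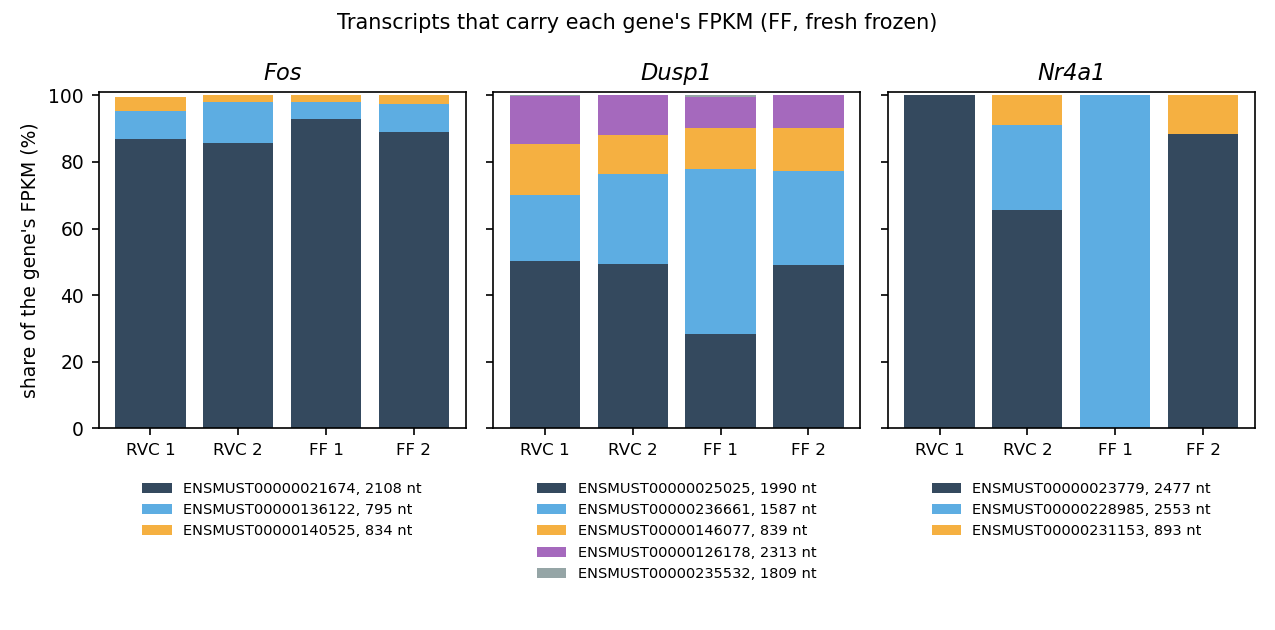
Share of the summed FPKM of Fos, Dusp1 and Nr4a1 in each transcript, per library (FF, fresh frozen). Transcripts under 0.5% in every library are not drawn. Fos stays mostly in 1 transcript, whereas fresh frozen 1 differs from the other libraries in how Dusp1 is divided. The division of Nr4a1, a gene at no more than 1.27 FPKM, differs in fresh frozen 1 and also among the other libraries.

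Genes related to these were taken from 6 lists of 114 genes, of which 95 could be tested. Limma gave 0 of them an adjusted p under 0.05. At an unadjusted p under 0.05 the RVC libraries were higher for 18 and lower for 7 of the 95, where 9.38% of all genes were higher and 8.99% lower. Among AP-1 relatives, 10 of 12 tested genes had a fold change above 0, with a median of 0.18. The most abundant was Fosl2, a FOS-related partner of JUN. It stood at 71.6 and 67.4 FPKM with RVC, above the 56.3 and 54.3 of fresh frozen (log2 fold change 0.33, SE 0.10, limma adjusted p 0.187). The stress response factors Atf4 and Atf2 had log2 fold changes of 0.20 and -0.24 (limma adjusted p 0.412 and 0.376). Fosl1, the other FOS-related gene, stayed under 0.35 FPKM in every library.

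The nearest relatives of Egr1 and Nr4a1 were scarce. Nr4a2 and Nr4a3 had means of 0.237 and 0.145 FPKM and Egr2 and Egr3 of 0.0852 and 0.0472, and Egr4 was listed at 0 in all 4 libraries. Nab2, a corepressor of EGR proteins, averaged 0.683 FPKM. Its paralog Nab1, the only tested gene of the list, was lower with RVC, at 8.31 and 7.66 FPKM against 9.82 and 10.3 (log2 fold change -0.30, limma adjusted p 0.256, and -0.46 from its most abundant transcript alone).

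Of 44 other immediate early genes, 37 were tested, 28 with a fold change above 0 and 9 below, at a median of 0.11. The median was 0.053 without RVC 1, 0.21 without RVC 2 and 0.16 without fresh frozen 1. In this list an unadjusted p under 0.05 went with RVC being higher for 9 genes and lower for 1 (9.38% and 8.99% of all genes). Without overlap 17 were higher and 3 lower (26.5% and 26.6% of all genes). The most abundant were Klf4, a factor of differentiating colon epithelium (240.0, 201, 217 and 205 FPKM in RVC 1, RVC 2, fresh frozen 1 and fresh frozen 2), Mcl1, a survival factor, and Sgk1, a kinase induced by aldosterone and by serum. They differed by 0.06, 0.12 and -0.15 on the log2 scale (limma adjusted p 0.819, 0.628 and 0.769). Gadd45b, named after its values were seen, had the lowest p of the list. Its RVC values were 12.99 and 13.3 FPKM and its fresh-frozen values 7.78 and 8.75 (log2 fold change 0.62, SE 0.12, limma adjusted p 0.129).

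Among 9 tested dual-specificity phosphatases other than Dusp1 the median was 0.13. It was -0.072 among those averaging 5 FPKM or more, 0.24 without fresh frozen 1 and 0.23 without fresh frozen 2. The most abundant were Dusp3, Dusp16 and Dusp6, which differed by 0.34, -0.07 and -0.19 on the log2 scale (limma adjusted p 0.213, 0.749 and 0.533). Of the upstream kinases and factors, 12 of 22 had a fold change above 0, at a median of 0.04, which was -0.044 from the most abundant transcript alone and 0.018 without RVC 2. Their most abundant members, the MAP kinase gene Mapk3, its activator Map2k1 and the ribosomal S6 kinase gene Rps6ka1, had log2 fold changes of 0.18, -0.08 and 0.22 (limma adjusted p 0.393, 0.683 and 0.321). Srf, which encodes the factor that binds CArG boxes, was named after its values were seen. It stood at 11.7 and 11.4 FPKM with RVC against 8.09 and 8.68 (log2 fold change 0.43, SE 0.12, limma adjusted p 0.156). At an unadjusted p under 0.05, 4 of the 22, with Srf among them, were higher in RVC and 1 was lower (9.38% and 8.99% of all genes).

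Heat shock genes, which also answer to handling and temperature, had a median of -0.16, with 5 of 14 above 0. The median was -0.086 without RVC 1 and -0.10 from the most abundant transcript alone. Hspa8, Hsp90ab1 and Hsp90aa1, the most abundant of the list, had log2 fold changes of -0.14, -0.18 and -0.47 (limma adjusted p 0.574, 0.432 and 0.165). The stress-inducible pair Hspa1a and Hspa1b, near-identical copies that share reads, had 0.54 and 0.66 (limma adjusted p 0.157 and 0.137). The small heat shock gene Hspb1, also abundant in smooth muscle, was higher with RVC, at 30.2 and 34.1 FPKM against 9.90 and 14.3 (log2 fold change 1.36, limma adjusted p 0.0741). These last 3 genes were named after their values were seen, and were the 3 higher in RVC at an unadjusted p under 0.05. At that level 4 of the list were lower, Hsp90aa1, Hspa4l, Hspd1 and Hspe1, the last 3 at -0.48, -0.43 and -0.35. Over all genes 9.38% were higher and 8.99% lower. Without overlap 4 of the list were higher and 7 lower (26.5% and 26.6% of all genes).

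**Figure D5:**
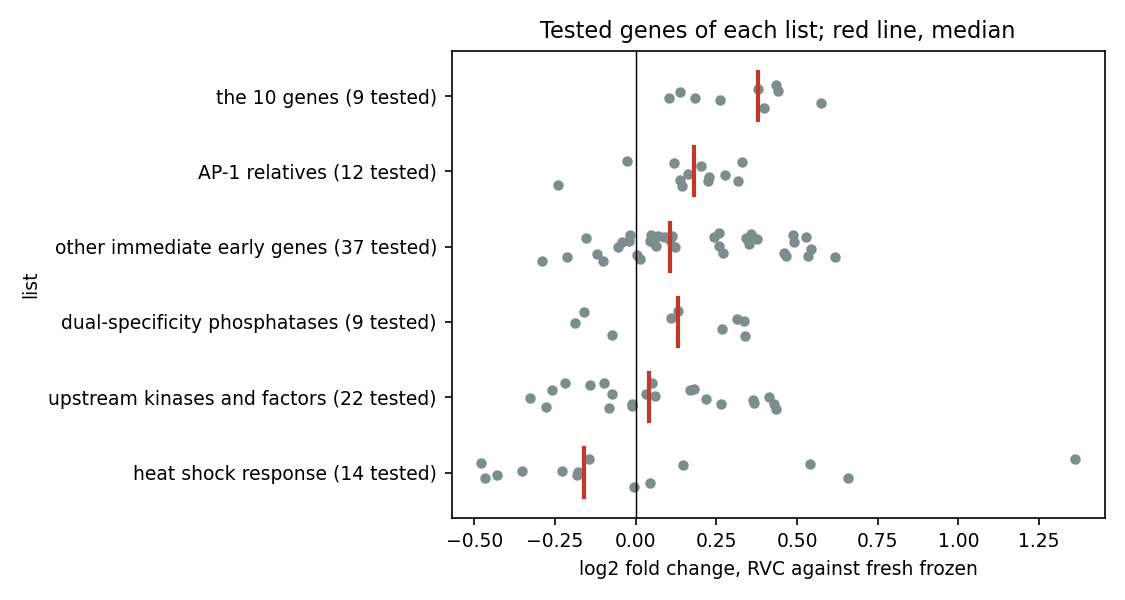
Log2 fold change, RVC against fresh frozen, of each tested gene in 6 lists (points, spread vertically for legibility) with the list median as a red line. The EGR and NR4A list, with 1 tested gene, is not drawn. The medians run from 0.38 for the 9 genes to -0.16 for heat shock genes.

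Markers of cell types also differed between the groups in direction. Those of smooth muscle were higher in RVC in 13 of 13 tested genes. They summed to 1713 and 2533 FPKM with RVC against 1131 and 1156 with fresh frozen, and the most abundant, Actg2, to 305 and 507 against 137 and 203. Endothelial markers, led by Pecam1, were higher in 11 of 11 (33.9 and 32.9 FPKM against 18.8 and 21.4), and plasma cell markers, led by Igkc, in 6 of 6 (1035 and 930 against 420 and 616). Macrophage and dendritic cell markers, led by Lyz2, were higher in 8 of 9 (158 and 156 against 113 in both). Limma gave 0 of these 39 genes an adjusted p under 0.05 and 31 an unadjusted p under 0.05, all higher in RVC. At that level 9.38% of all genes were higher and 8.99% lower. The count covers these 4 lists only, and other marker lists differed. Fibroblast markers had 2 of 10 higher, absorptive epithelium 1 of 11 and enteric neurons and glia 0 of 7, with 0 lower in each. Goblet cell markers had 0 higher and 1 lower of 8, and stem and proliferation markers 0 higher and 4 lower of 7. The part of these markers in the values of the immediate early genes was not tested.

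Sums over some other lists separated the groups as well. Fibroblast markers were higher in RVC in 8 of 10 genes, 4 of them without overlap (26.5% of all genes), and summed to 240 and 286 FPKM against 236 and 237. Dcn, the most abundant, overlapped between the groups, at 83.2 and 94.3 FPKM against 112 and 72.1. Those of enteric neurons and glia, led by Vip, were higher in 6 of 7 and summed to 43.3 and 40.8 FPKM against 28.9 and 39.4. Mast cell markers summed to less in RVC, 4.67 and 4.99 FPKM against 5.22 and 8.20, but this was mostly Kit, the only 1 tested. Kit overlapped between the groups, at 3.65 and 4.45 FPKM against 4.31 and 7.43. The next most abundant, Tpsb2, averaged 0.230 FPKM, and Cpa3 was higher in RVC, at 0.171 and 0.202 FPKM against 0.0315 and 0.104. Absorptive epithelium markers, led by Car4, were higher in RVC in 11 of 11 tested genes, 5 of them without overlap (26.5% of all genes). They summed to 8082 to 11174 FPKM, with overlap between the groups. Goblet cell markers, led by Zg16, were higher in 5 of 8 and summed to 14280 to 17691 FPKM, also with overlap. Stem and proliferation markers were lower in RVC in 5 of 7 genes (sums of 49.5 and 55.0 FPKM against 61.6 and 62.5). The 4 lower without overlap (26.6% of all genes) were the cell cycle genes Mki67, Top2a, Cdk1 and Ccnb1. Pcna, the most abundant, overlapped between the groups, at 23.4 and 27.8 FPKM against 24.9 and 21.2. The stem cell genes Lgr5, Ascl2 and Olfm4 averaged below 1 FPKM and were not tested. T cell markers, led by Trbc2, summed to 3.93 to 5.45 FPKM and overlapped between the groups. Of the neutrophil genes, Mpo and Elane were listed at 0 in all libraries and S100a8 and S100a9 at or near 0, while Ly6g was listed at 287 and 333 FPKM with RVC against 252 and 170 (log2 fold change 0.58, limma adjusted p 0.192).

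Sequenced fragments were not counted in the files. By the ratio of coverage to FPKM, fresh frozen 2 was deepest and the other libraries had 72.6% (fresh frozen 1) to 81.8% (RVC 1) of its depth. The labels give ileum as tissue and the protocol distal colon. The 15 colon markers, led by Saa1, summed to 7963 to 11515 FPKM and the 18 ileum markers, led by Mptx2, to 84.7 to 150 FPKM, with Fgf15, Apoa4, Defa17, Defa22 and Defa26 at 0 in all 4 libraries.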

How the data were processed

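The values deposited by the authors are FPKM per transcript with the bounds of its interval, read depth along the transcript (coverage, a signal) and transcript length, per the file headers. Reads were aligned with TopHat2 2.1.1 to GRCm39 and quantified with Cufflinks 2.2.1 at default parameters, per the series' design text and the submitters' processing notes. Annotation release and strand use are not given in the sources used here. No count model was applied, since FPKM is normalized.

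Gene FPKM was the sum over transcripts. Libraries were scaled by median ratio (factors 0.991 to 1.01), and log2(scaled FPKM + 1), with a pseudocount of 1, was fitted with limma 3.58.1 in R 4.3.3 (mean-variance trend, no covariate, Benjamini-Hochberg over all features, threshold 0.05). Tested features had a mean of at least 1 FPKM, a transcript of at least 300 nt and status OK in every library. The fit was also run on data simulated from its own variance model, which cannot check whether that model holds for these libraries. Transcript types came from GENCODE M39. Named by rule were the 10 genes, the 3 most abundant genes of each related list, and the most abundant gene of each marker list and its genes at 0. So were transcripts with at least 10% of a gene in a library (and others whose sign changed), and the 5 genes most like Fos. Other genes were named outside this rule, such as Fosl1, Nr4a3, Egr2, Egr3, Tpsb2, Cpa3, S100a8 and Lgr5. Gadd45b, Srf and the heat shock genes beyond the 3 most abundant were named after their values were seen. Mki67, Top2a, Cdk1 and Ccnb1 were named because they were lower in RVC without overlap. The genes and lists were chosen with earlier results of these data known.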

Additional observations from a re-analysis of the deposited data

How the results depend on the processing

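None of the 9 genes passed an adjusted p of 0.05 under those of the 16 alternatives in which it was tested. Fosb was not tested at a mean of at least 5 FPKM, with the most abundant transcript or without RVC 1, and Egr1 not at a mean of at least 5 FPKM. Of 140 fold changes of these genes under alternatives, 138 kept their direction. The other 2, both without RVC replicate 1, were Fos at -0.21 and Atf3 at -0.20. With each library left out Fos ran from -0.21 to 0.42 and Atf3 from -0.20 to 0.48. Among the transcripts, ENSMUST00000021674 of Fos changed sign to -0.016 with upper-quartile scaling, -0.30 without RVC 1 and -0.10 without fresh frozen 2. ENSMUST00000027941 of Atf3 went to -0.18 and ENSMUST00000140525 of Fos to -0.22 without RVC 1, and ENSMUST00000236661 of Dusp1 to 0.20 without fresh frozen 1. With each library left out, ENSMUST00000021674 ran from -0.30 to 0.35, ENSMUST00000027941 from -0.18 to 0.49, ENSMUST00000140525 from -0.22 to 0.90 and ENSMUST00000236661 from -0.68 to 0.20. The median of the 9 genes ran from 0.22 to 0.42 with each library left out, where the lone library of a group is assumed to vary like the other group. Over all genes, limma calls numbered 0 without a filter on low values (3531 at an unadjusted p under 0.05), 0 when the gene sum skipped transcripts below 300 nt (2577) and 0 without a trend (2462). They numbered 2 at a mean of at least 5 FPKM, 2 with the most abundant transcript, and 8 to 37 with a library left out, against 5. Calls on transcripts numbered 0 without a filter (9180 unadjusted), 6 for those averaging 5 FPKM or more, 7 without the length minimum, and 0 to 0 with a library left out, against 1. The median of the EGR and NR4A list was 0.032 without a filter, which lets more of its genes in. The other causes were not tested.

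The sample numbers of the labels pair the libraries by number only. With a replicate block the count over all genes was 123 and that of the immediate early genes 0, with 5 higher at an unadjusted p under 0.05 (9.19% of all genes in that fit). Deviations of same-numbered libraries correlated at -0.13, and a crossed pairing, added after seeing the data, gave 12 genes.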
